A study of Homo sapiens with 4 samples.

Results

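TFRC, SLC25A37 and ABCB10 RNAs were taken from a GRID-seq table of RNA contacts with enhancers and promoters in K562, a human erythroleukaemia line with the BCR-ABL1 fusion gene. Members were chosen by symbol: a connection belonged to the set if its RNA was named TFRC, SLC25A37 or ABCB10. These are 3 of 2637 RNAs, and they held 136 of 115357 connections, 58 for TFRC, 37 for SLC25A37 and 41 for ABCB10. GRID-seq ligates RNA to nearby DNA in fixed nuclei, so a connection is an RNA found at a regulatory element. K562 cells with wild-type RUNX1 (WT) were compared with K562 cells whose RUNX1, a transcription factor of blood formation, ends early at a stop codon (R320*). Each genotype gave 2 libraries, which the authors had pooled into 1 score per connection. No replicate spread, and so no test of any difference between the genotypes, could be had, and the labels do not say whether the mutant cells were 1 clone or the libraries separate cultures.

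Developing red cells take up iron bound to transferrin through the transferrin receptor, encoded by TFRC. Iron released from endosomes is carried into mitochondria by mitoferrin-1, encoded by SLC25A37, and is inserted into protoporphyrin to make haem for globin. ABCB10 is an ATP-binding cassette transporter of the inner mitochondrial membrane that binds and stabilises mitoferrin-1 and is needed for haem synthesis in erythroid cells. TFRC mRNA is also a textbook case of control by iron-regulatory proteins, which act on the mature message. Whether that control bears on the contacts measured here was not tested.

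TFRC (ENSG00000072274.13) lies on the minus strand of chromosome 3, from 196049284 to 196082090, and ABCB10 (ENSG00000135776.5) on the minus strand of chromosome 1, from 229516582 to 229558707. Gene positions are those of RefSeq on GRCh38.p14, and element positions are those of the deposited table on hg38. The RefSeq promoter table matched 2 of the 3 genes, TFRC and ABCB10. Their 250 bases upstream of the start are shown because each lies inside an active promoter element that the gene's own RNA contacted. Capitals mark matches, searched on both strands, to a TATA box (TATAAA), to the core of an Sp1 box (GGGCGG) and to a GATA motif (GATAAG) (an Sp1 core on the opposite strand reads as its reverse complement here, and neighbouring matches may touch). TFRC is chr3:196082091-196082340 and ABCB10 is chr1:229558708-229558957, both on the minus strand and written 5′ to 3′ along the gene.
TFRC: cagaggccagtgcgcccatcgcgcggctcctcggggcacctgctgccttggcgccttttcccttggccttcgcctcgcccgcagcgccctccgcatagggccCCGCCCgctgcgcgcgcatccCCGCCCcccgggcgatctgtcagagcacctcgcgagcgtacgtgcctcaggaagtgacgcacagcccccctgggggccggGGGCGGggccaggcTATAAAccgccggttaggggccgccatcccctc
ABCB10: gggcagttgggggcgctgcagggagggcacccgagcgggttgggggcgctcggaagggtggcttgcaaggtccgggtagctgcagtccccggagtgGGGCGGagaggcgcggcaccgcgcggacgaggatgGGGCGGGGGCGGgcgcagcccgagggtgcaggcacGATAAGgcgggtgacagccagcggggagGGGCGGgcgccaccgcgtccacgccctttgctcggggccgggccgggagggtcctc

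Both stretches are rich in G and C, at 74.4% for TFRC and 77.2% for ABCB10 against a median of 58% over 35116 promoters of the same length. TFRC held 3 copies of GGGCGG and 1 TATAAA, whose first base lies 33 bases upstream of the start. ABCB10 held 4 copies of GGGCGG and 1 GATAAG, a form of the motif bound by GATA factors, with its first base 84 bases upstream. Of all promoters, 42.6% held GGGCGG, 10.7% TATAAA and 5.65% GATAAG in this window. These 3 motifs were chosen after the sequences were seen. The other GATA form searched, AGATAA, and the RUNX motif TGTGGT had 0 matches in either stretch, against 9.17% and 11.0% of all promoters. Within the promoter elements that TFRC RNA contacted, 3 of 24 RefSeq promoters held TGTGGT, and for ABCB10 RNA 2 of 21.

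In the table a score is 0 or above 1.2, so 0 was read as not listed and never as a measured zero. The table held 82454 connections for WT (median score 1.71) and 84992 for R320* (median 1.73). A contact is called local where the element lies at the RNA's own gene, cis elsewhere on that chromosome and trans on another. Of 16 markers of K562 and erythroid cells, 6 were listed as RNAs, with 605 connections in WT and 729 in R320*. They were the fetal and embryonic globins HBG2 and HBE1, LMO2, BCR (34 and 43), ABL1 (181 and 204) and TFRC (47 and 46). TFRC is a member of the set, so its listing is no separate check. GATA1, KLF1 and the alpha globins were not among the listed RNAs. Of 9 myeloid markers 0 were listed, of 10 megakaryocytic markers 3 (63 and 55 connections) and of 9 lymphoid markers 2 (15 and 36). A gene missing from the list is not shown to be silent, so the list checks the cell type only in part.

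The 3 RNAs differed in how their contacts compared between genotypes. For TFRC 47 connections were listed in WT and 46 in R320*, with 35 in common. SLC25A37 had 23 and 34, with 20 in common. ABCB10 had 0 and 41. An RNA listed under both genotypes had a median of 28 connections in WT and 30 in R320*. RNAs listed in R320* only made up 8.61% of all RNAs, and ABCB10 was among these 227. In the table as a whole 45.2% of connections were listed in both genotypes, against 60.3% for TFRC (95% Wilson interval 47.5 to 71.9) and 54.1% for SLC25A37 (38.4 to 69.0). By type, both genotypes held 81.1% of local connections (2 of 2 for TFRC and 2 of 2 for SLC25A37), 51.4% of cis connections (32 of 50 and 18 of 35) and 11.5% of trans connections (1 of 6 for TFRC). These intervals cover counting error only, and connections of 1 RNA to neighbouring elements are not independent.

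**Figure D1:**
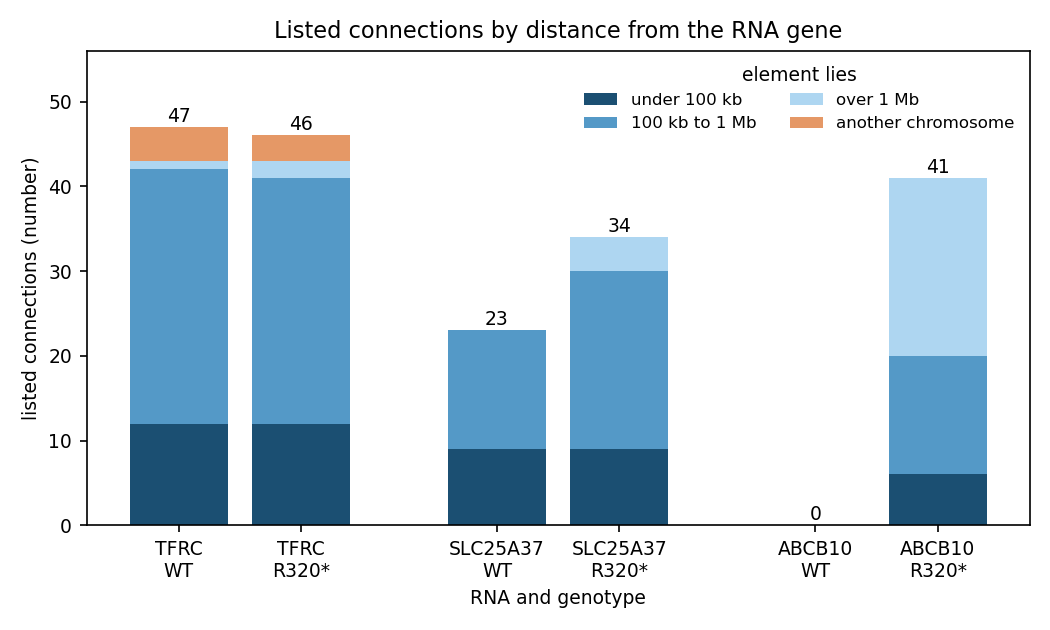
Number of listed connections (vertical axis) of TFRC, SLC25A37 and ABCB10 RNA in each pooled genotype, with bars split by where the element lies. TFRC had 47 and 46, SLC25A37 23 and 34, and ABCB10 0 and 41. TFRC alone of the 3 had contacts on another chromosome.

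SLC25A37 RNA had 1.48 times as many connections in R320* as in WT, a log2 ratio of 0.56. Of 1293 RNAs listed in both genotypes with a mean of at least 25 connections, 93.9% had a lower ratio. More connections in R320* were common among these RNAs, at 58.5%, and fewer were seen for 36.4%. A 2-fold excess in R320* was found for 0.619% of them, and neither SLC25A37 nor TFRC reached it. TFRC, with a log2 ratio of -0.03, stood above 35.3% of RNAs.

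TFRC RNA was listed at its own gene at nearly the same score in both genotypes. At an enhancer that covers most of the gene body (196044959 to 196073996) it scored 2.81 in WT and 2.85 in R320*. At the promoter (196078482 to 196083873) it scored 2.50 and 2.57. The higher of these local scores exceeded 87.5% of all local scores in WT and 88.5% in R320*. All 12 connections of TFRC RNA under 100 kb from the gene were listed in both genotypes, with medians of 2.62 and 2.64. Over all RNAs, 80.5% of 17522 connections at that distance were in both.

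The strong contacts of TFRC RNA near the gene lay upstream of its start. TFRC is read from the minus strand, so upstream means higher coordinates. Upstream, 9 elements between 8.51 and 123.2 kb from the gene scored 2.25 to 3.21 in WT and 2.50 to 3.27 in R320*, and all 9 were in both. Downstream, 6 elements within 150 kb, 5 of them listed in WT, scored 1.23 to 2.42 in WT and 1.33 to 2.45 in R320*, and only 1 of them reached a score of 2 in each genotype. The highest of all same-chromosome scores of TFRC RNA, 3.21 and 3.27, was at an enhancer 8.51 kb upstream (196090603 to 196093642). Next came an enhancer 9955 bp from the noncoding gene LINC00885 (196170848 to 196171305), where WT had 2.97 and R320* 2.88. At the promoter of LINC00885 (196139381 to 196145335) the scores were 2.84 and 2.79. The 150 kb window was chosen after these values were seen.

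**Figure D2:**
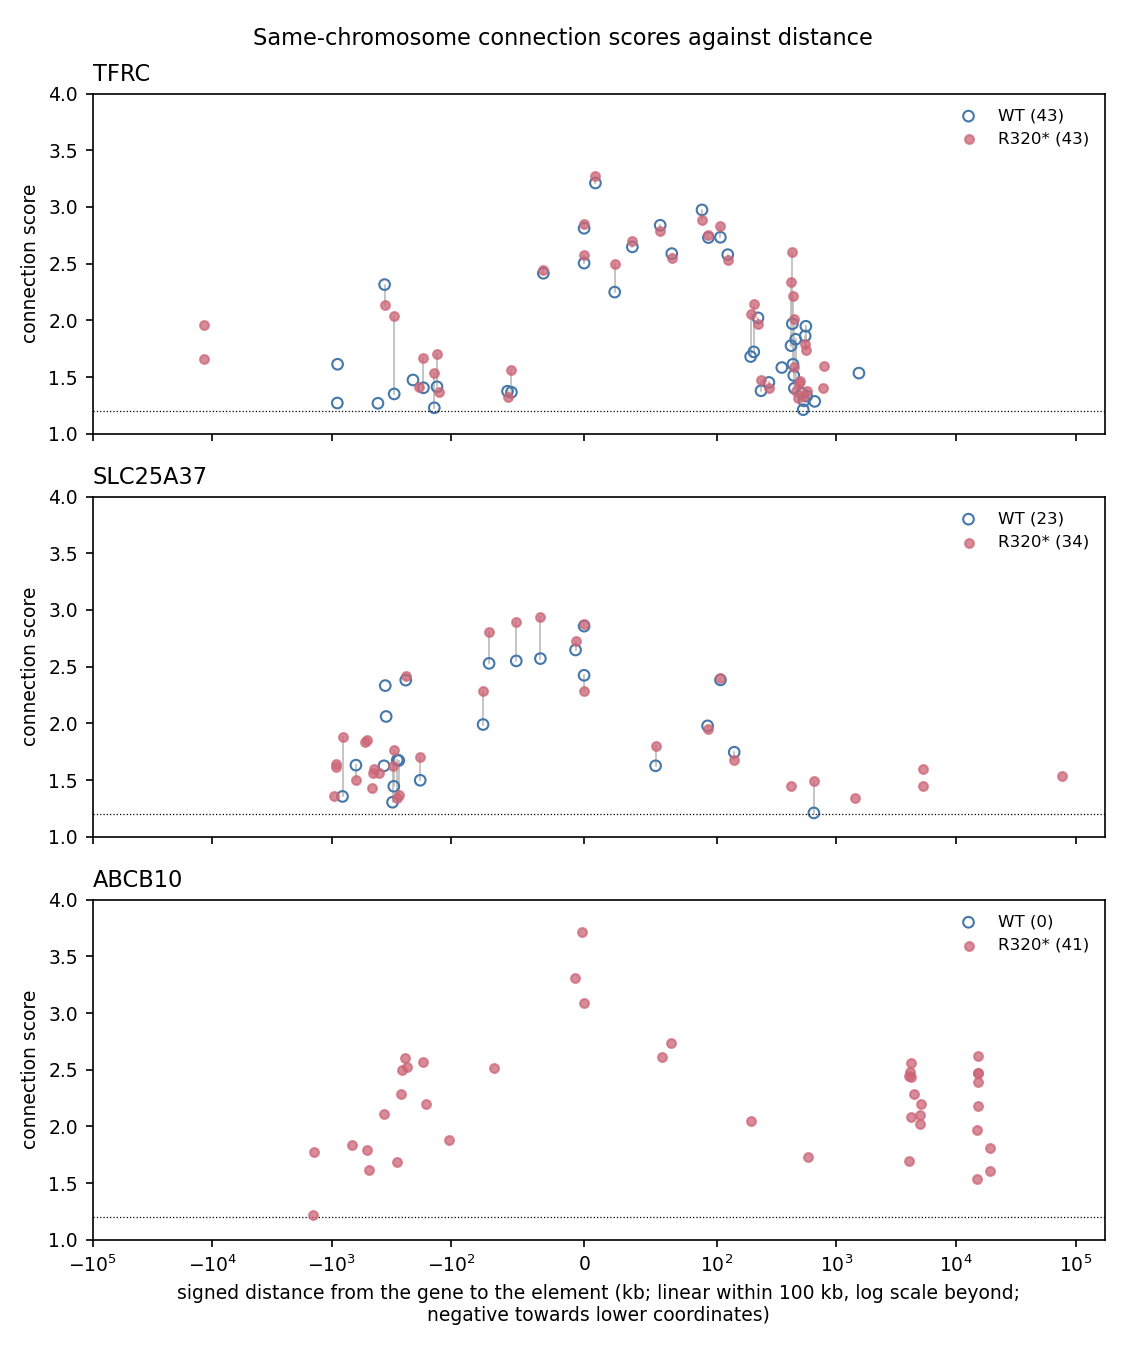
Connection score (vertical axis) against signed distance in kb from the gene to each same-chromosome element (horizontal axis, linear within 100 kb and log beyond), 1 panel per RNA; open circles are WT, filled circles R320*, grey lines join the same connection and the dotted line is the minimum of 1.2. Scores of TFRC and SLC25A37 RNA were highest near the gene, and ABCB10 RNA, listed in R320* only, had scores of 1.53 to 2.62 at elements 4.05 to 15.4 Mb away.

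Farther upstream, TFRC RNA scored higher in R320* over a run of neighbouring elements at RNF168 and SMCO1. RNF168 is a ubiquitin ligase gene of the DNA damage response, and SMCO1 encodes a small membrane protein. At the RNF168 promoter (196498923 to 196506444) the score was 1.78 in WT and 2.34 in R320*. At an SMCO1 enhancer (196509592 to 196511362) it was 1.97 and 2.61, and at the SMCO1 promoter (196514487 to 196517782) 1.61 and 2.21. The remaining pair of elements in this run had 1.51 and 2.01, and 1.40 and 1.59. All 5 elements thus scored higher in R320*, where 58.6% of connections in both genotypes did so over all RNAs. Of the 5, 4 passed 2 in R320* while none did in WT. The run and the score of 2 were chosen after the values were seen. The next element, 455.6 kb from TFRC, scored lower in R320* (1.83 in WT and 1.37 in R320*). On the downstream side an enhancer inside the mucin gene MUC4 (195747937 to 195748888) had 1.35 and 2.04, the widest difference of TFRC RNA at 0.69.

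Among connections listed in both genotypes, 4 of 35 for TFRC were at least 0.5 higher in R320* (MUC4, RNF168 and the pair at SMCO1) and 0 were at least 0.5 lower. Over all RNAs, 3.55% were at least 0.5 higher and 2.07% at least 0.5 lower. The 3 at RNF168 and SMCO1 are neighbours and cannot be counted as separate findings. Just under the threshold, at 0.495, lay the next SMCO1 enhancer (196521379 to 196522767). The lowest difference was -0.46, at an enhancer 16106 bp from WDR53 (196537695 to 196538072) with 1.83 in WT and 1.37 in R320*.

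DLG1 RNA, from a scaffold protein gene 960.5 kb farther along chromosome 3, served as a comparison at the same elements. DLG1 shared 33 elements with TFRC, 56.9% of the TFRC elements and 42.3% of its own, more by overlap than any other RNA. At the RNF168 promoter DLG1 RNA scored 1.39 in WT and 1.48 in R320*. At the SMCO1 enhancer it scored 1.88 and 1.80, and at the SMCO1 promoter 1.67 and 1.61. Over the 16 elements where both RNAs were listed in both genotypes, the median difference was 0.07 for TFRC and 0.01 for DLG1. DLG1 RNA did not show the differences of TFRC RNA at this run. The run was picked by the rise of TFRC RNA, so this is a description, and no test of it could be made.

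**Figure D3:**
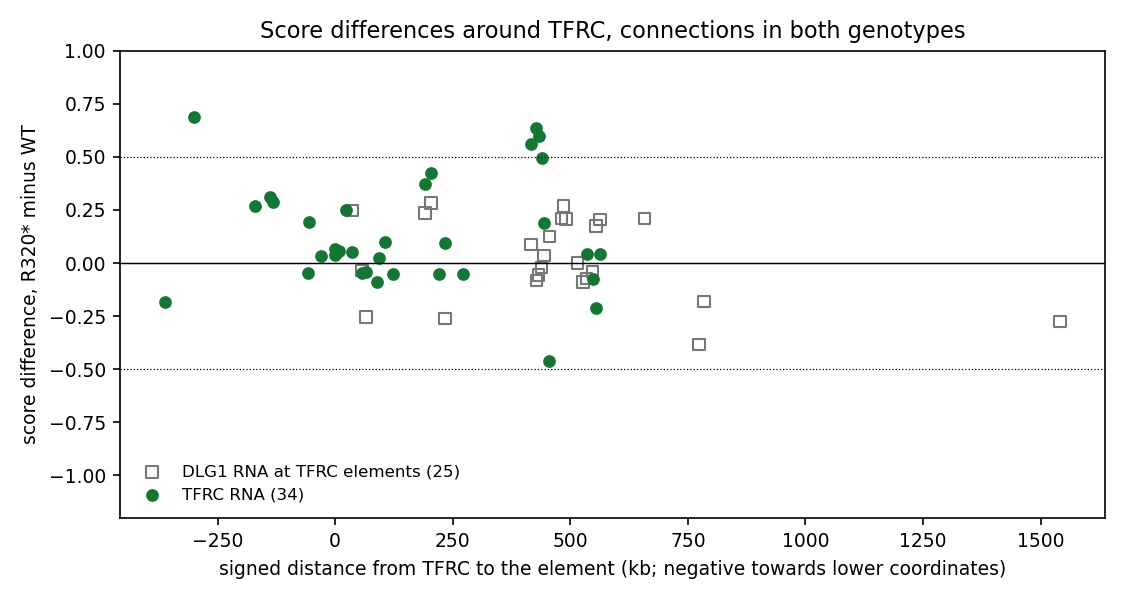
Score difference, R320* minus WT (vertical axis), against signed distance in kb from TFRC (horizontal axis) for connections in both genotypes; filled circles are 34 same-chromosome connections of TFRC RNA, open squares 25 connections of DLG1 RNA at elements that TFRC RNA also contacted, and dotted lines mark 0.5 and -0.5. Near 430 kb upstream, TFRC values reach 0.64 while DLG1 values stay between -0.08 and 0.09.

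Contacts of TFRC RNA listed in 1 genotype were mostly weak or distant. They numbered 12 in WT only (median score 1.505) and 11 in R320* only (1.47), and 6 of each scored under 1.5. Just beyond SMCO1, 3 elements at WDR53 and FBXO45 were in R320* only, with 1.32 to 1.47. At FBXO45 and WDR53 DLG1 RNA was listed in both genotypes. The farthest contacts on the chromosome were at the promoter of EIF4G1, a translation initiation factor gene 11.7 Mb away (184333938 to 184337477), with 1.96 in R320* only, and at an enhancer inside CLCN2 next to it, with 1.66 in R320* only.

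The highest score of TFRC RNA in either genotype was on another chromosome. At an enhancer 20961 bp from AC026412.3 near the start of chromosome 5 (1632428 to 1634421), TFRC RNA had 3.38 in WT and 3.47 in R320*. Only 11.5% of trans connections were in both genotypes, and of those 2524, 93.9% had a lower WT score and 95.0% a lower R320* score. In R320* only, TFRC RNA was also listed on chromosome 5 at the promoter of SDHA, a subunit gene of succinate dehydrogenase (217008 to 219917), with 3.12, and at an enhancer inside CCDC127 (206488 to 210068), with 2.29. In WT only, it was listed at 3 neighbouring elements of chromosome 19 at ABCA7 and POLR2E (1058768 to 1088599), with 1.85, 2.39 and 2.66. ARID3A RNA of chromosome 19 was listed at 2 of these 3 in both genotypes, with 1.25 to 1.44.

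RNAs near TFRC were listed at the same part of chromosome 5, and RNAs from there were listed in the TFRC neighbourhood. DLG1 RNA was listed at the enhancer near AC026412.3 with 3.55 in R320* only. A promoter at AC021087.1 on chromosome 5 (270653 to 273925) was met by DLG1 RNA in both genotypes, with 2.92 and 3.22, and by LRCH3 RNA of chromosome 3 in R320* only, with 3.17. In the first 2 Mb of chromosome 5, chromosome 3 RNAs were listed 2 times in WT and 6 times in R320*. In the other direction, chromosome 5 RNAs were listed 17 times in WT and 15 times in R320* at elements of chromosome 3 from 3 Mb before TFRC to the end. These came from AC021087.5 (14 in WT and 15 in R320*) and PDCD6 (3 in WT, 0 in R320*). At an enhancer 57.7 kb downstream of TFRC (195988501 to 195991630), AC021087.5 RNA scored 4.12 in WT and 3.94 in R320*, while TFRC RNA itself scored 1.38 and 1.33. AC021087.5 RNA was local at the SDHA promoter, with 2.16 and 2.13. Trans here means only another chromosome of hg38. Whether the reads behind these listings were placed uniquely between chromosomes was not tested.

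SLC25A37 (ENSG00000147454.14) lies on chromosome 8, from 23528956 to 23575463. Its RNA was listed at its own gene in both genotypes, with all 9 connections under 100 kb shared. At an enhancer inside the gene (23536365 to 23553068) it scored 2.86 in WT and 2.87 in R320*, above 89.4% and 89.7% of local scores. At the promoter (23527232 to 23533085) it scored 2.42 and 2.28. A further enhancer at the other end of the gene (23574594 to 23575013) did not list SLC25A37 RNA in either genotype.

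On the side of its promoter, towards lower coordinates, 5 elements between 6.44 and 76.1 kb scored 1.99 to 2.65 in WT and 2.29 to 2.93 in R320*. Each of the 5 was higher in R320*, where 58.6% of connections in both genotypes were so over all RNAs. The stretch was chosen after the values were seen, and its elements are neighbours. The SLC25A37 promoter, next to it, scored lower in R320* (2.42 in WT and 2.28 in R320*). The promoter of the noncoding AC104561.3 (23493117 to 23496045) had 2.57 and 2.93, an enhancer at AC104561.1 (23472248 to 23477890) 2.55 and 2.89, and the promoter of ENTPD4, a nucleotide-hydrolysing enzyme gene (23456468 to 23457411), 2.53 and 2.80. The ranges of the genotypes overlap across elements.

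The added contacts of SLC25A37 RNA in R320* lay far from the gene and scored low. Of 37 connections 14 were in R320* only, with scores of 1.34 to 1.85 and a median distance of 725.6 kb. Over all RNAs, 28.5% were in R320* only and 26.3% in WT only. Highest among them were an enhancer at the death receptor gene TNFRSF10B (23022373 to 23024374) with 1.85, the promoter of RHOBTB2 (22999036 to 23000552) with 1.84 and the promoter of PDLIM2 with 1.64. Beyond 1 Mb, 27.0% of connections over all RNAs were in both genotypes. All 4 of SLC25A37 RNA at that distance were in R320* only, with 1.34 to 1.60. They include an enhancer at HMBOX1 5.32 Mb away and an enhancer at AP003472.1 (100395172 to 100399239), 76.8 Mb away on the other arm, with 1.54. With a minimum score of 1.5 the numbers were 18 in WT and 26 in R320*.

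Only 3 connections of SLC25A37 RNA were in WT only, and all lay together at the death receptor genes. An enhancer near TNFRSF10D (23171517 to 23172238) had 2.33, an enhancer near TNFRSF10A-AS1 (23176733 to 23178300) 2.06 and the TNFRSF10D promoter (23163248 to 23163530) 1.63. Beyond 100 kb on that side of the gene, 3 of 11 WT scores and 1 of 17 R320* scores reached 2. On either side of this run other elements were listed in R320*. They included TNFRSF10B at lower coordinates (1.85 and 1.43, R320* only) and TNFRSF10A at higher ones (1.45 in WT and 1.76 in R320* at its promoter).

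Of 20 SLC25A37 connections in both genotypes, 1 was at least 0.5 higher in R320* and 0 were at least 0.5 lower. It was at an enhancer inside PEBP4 (22714798 to 22716645), with 1.36 in WT and 1.88 in R320*. Centred on the median difference of the whole table, 0.0394, it fell under the threshold. The lowest differences were at CHMP7, a gene of the membrane-remodelling ESCRT machinery. Its promoter (23245574 to 23245940) had 1.68 and 1.35 and its enhancer (23252640 to 23253980) 1.67 and 1.36.

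Over all connections in both genotypes, the median difference was 0.06 for TFRC (SD over connections 0.26) and 0.13 for SLC25A37 (SD 0.23), against 0.0394 (SD 0.247) in the whole table. The 95% order-statistic interval was 0.02 to 0.19 for TFRC and -0.03 to 0.30 for SLC25A37, and describes the spread over connections, not over libraries. TFRC scored higher in R320* at 24 of 35 and SLC25A37 at 14 of 20. Over all RNAs, 58.6% scored higher. Counted against the median of the table instead of 0, 22 of 35 and 11 of 20 were above it. Centring on that median left 0.02 for TFRC.

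**Figure D4:**
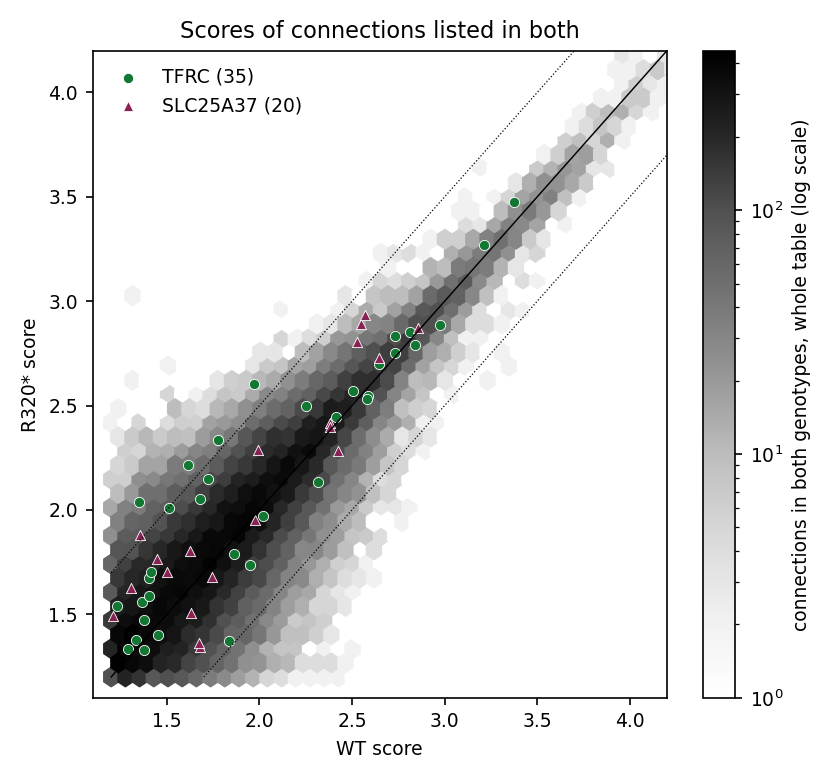
R320* score against WT score for connections listed in both genotypes; circles are 35 connections of TFRC RNA, triangles 20 of SLC25A37 RNA, grey hexagons the 52089 of the whole table on a log colour scale, the solid line equality and the dotted lines a difference of 0.5. TFRC has 4 points above the upper dotted line, SLC25A37 has 1, and neither has a point below the lower one.

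ABCB10 RNA was listed in R320* only, at 41 elements. In WT it had 0 connections of any type, including at its own gene. In R320* its scores ran from 1.22 to 3.72 with a median of 2.20, and 1 was under 1.5. The promoter of ABCB10 (229553793 to 229559992) had 3.09, above 96.4% of local scores in R320*. An enhancer at the noncoding AL121990.1 (229512781 to 229515099), 1.48 kb from the gene, had 3.72, and the promoter of NUP133, a nuclear pore gene (229506308 to 229509405), had 3.31. On the other side, the promoter of URB2 (229623805 to 229628018) had 2.74 and an enhancer at TAF5L (229617362 to 229621213) 2.61.

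ABCB10 was 1 of many RNAs listed under a single genotype. Of the 227 RNAs in R320* only, 222 had a local connection there, and the median of their highest local scores was 2.59. A further 273 RNAs, 10.4%, were in WT only. Of the R320*-only RNAs, 21 had more connections than ABCB10, and the median was 20. No source used here says what an RNA had to pass to be listed. A difference in contacts, in the amount of RNA or in passing such a filter cannot be told apart in this table.

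ABCB10 RNA reached far along the chromosome, as did the RNAs of the neighbouring genes NUP133 and URB2. In R320*, 36 of 56 NUP133 connections and 15 of 24 URB2 connections lay over 1 Mb away. Of the 41 ABCB10 elements, 21 lay over 1 Mb away, and the median distance was 1406 kb, greater than for 88.5% of 2488 RNAs. The 95% order-statistic interval of this median was wide, 263 to 4172 kb, and with enhancers only the median was 626 kb. TFRC (324.6 kb) and SLC25A37 (356.7 kb) lay near the median over RNAs, 362 kb. Scores of ABCB10 RNA did not fall off evenly with distance. The R320* median was 2.91 under 100 kb, 2.08 from 100 kb to 1 Mb and 2.18 beyond, where the median over all RNAs was 1.503. Of the 21, 2 lay at ARF1 and C1orf35 on the lower side (1.22 and 1.78), and the other 19 formed 3 groups on the upper side. The first (10 elements, 4.05 to 5.06 Mb away) held KCNK1, a potassium channel gene, AL357972.1, SLC35F3 and IRF2BP2, with scores of 1.699 to 2.56. The next (7 elements, 14.9 to 15.4 Mb) held ADSS, COX20, HNRNPU and EFCAB2, with 1.53 to 2.62. The COX20 and HNRNPU elements, the highest in this group, met 35 to 45 other RNAs in WT and 47 to 55 in R320*. The last (2 elements, 19.3 Mb) held AL672291.1 and PGBD2, with 1.81 and 1.60.

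NUP133, whose gene ends 8.24 kb from ABCB10, was listed in both genotypes and allowed the same places to be followed in WT. NUP133 RNA had 38 connections in WT and 56 in R320*, and shared 34 elements with ABCB10, 82.9% of the ABCB10 elements and 45.9% of its own. Around the gene, NUP133 RNA met 17 of the 22 ABCB10 elements in WT and 18 in R320*. At the 3 distant groups it met 1, 0 and 0 elements in WT and 9, 5 and 2 in R320*. Under 100 kb NUP133 RNA had 7 connections in each genotype, with medians of 2.63 and 2.64. Over 1 Mb it had 11 in WT and 36 in R320*, of which 1 was shared. Sharing was less common at that distance over all RNAs too, with 27.0% of 28286 connections in both genotypes. Of the 11 in WT, 10 lay between IBA57 and HIST3H3 at lower coordinates, where NUP133 RNA had 0 in R320*. The groups were set by R320* listings of ABCB10 RNA, which favours R320* in the counts of NUP133 RNA there, and they are given as a description. URB2, 67.5 kb on the other side, was listed in R320* only, with 24 connections, 16 of them at ABCB10 elements.

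Other RNAs were listed at these elements in both genotypes. In WT 39 of the 41 elements were met by at least 1 other RNA, so the elements themselves were listed. The median number of other RNAs per element was 5 in WT and 9 in R320*, with 35 elements higher in R320*, 1 lower and 5 equal. All 41 elements entered through an R320* listing and none through WT, so these numbers favour R320* by construction and are given as a description. NUP133 and GALNT2 RNA met more of them in R320* (18 and 34, and 17 and 29), while ARID4B and MTR RNA met more in WT (12 and 9, and 9 and 5). Of the 10 other RNAs whose genes lie within 3 Mb of ABCB10, 8 had more connections in R320* and 3 of these (ARF1, URB2 and TSNAX-DISC1) were in R320* only. Over all RNAs listed in both genotypes 58.2% had more and 33.6% had fewer, and 8.61% of all RNAs were in R320* only. Together the 10 had 302 and 433. The 6 RNAs within 3 Mb of TFRC had 239 in WT and 233 in R320*, with 3 higher and 3 lower in R320*. Of these 6, PAK2 was in WT only (48) and XXYLT1 in R320* only (35). The 2 near SLC25A37 had 62 and 70.

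**Figure D5:**
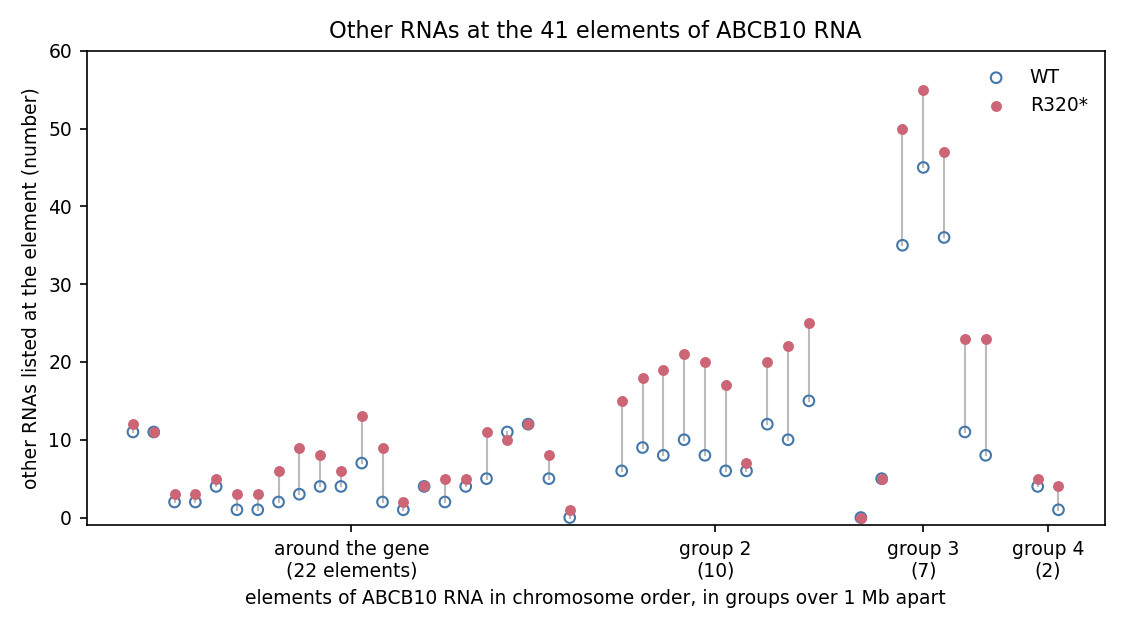
Number of other RNAs listed at each of the 41 elements of ABCB10 RNA (vertical axis) in chromosome order, in 4 groups over 1 Mb apart; open circles are WT, filled circles R320*, and grey lines join the same element. Elements met 0 to 45 other RNAs in WT and 0 to 55 in R320*, and 35 of 41 met more in R320*, though all 41 were chosen by an R320* listing.

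Elements at the members' own genes were also met by other RNAs. The ABCB10 promoter met 13 RNAs, 5 in WT and 12 in R320*. In both genotypes it met NUP133 (2.45 and 2.38), AHCTF1 (2.28 and 2.37), KCNK1 (1.76 and 1.63) and GALNT2 (1.496 and 1.59), so the promoter itself was listed in WT. AL713998.1, URB2 and DESI2 RNA met it in R320* only, with 2.36, 2.35 and 2.22. The 4 elements nearest TFRC had 10 connections in WT and 4 in R320*, and the 4 shared ones were all of TFRC RNA. The others were in WT only and came from NYAP2 (3), AL713998.1 (2) and DLG1 (1). In the whole table NYAP2 RNA had 404 connections in WT and 0 in R320*, and AL713998.1 RNA 337 and 25. The 3 elements nearest SLC25A37 had 7 and 6. PPP2R2A, a phosphatase regulatory subunit gene 2716 kb away, met the SLC25A37 promoter with 1.75 in WT and 2.08 in R320*, while SLC25A37 RNA had 2.42 and 2.28 there.

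Promoters made up 34.5% for TFRC, 43.2% for SLC25A37 and 31.7% for ABCB10, against 29.7% of 33948 elements. Median element lengths were 3213, 1517 and 3852 bp, against 1868 bp. The part that lay at distance 0 from its nearest gene was 69.0%, 78.4% and 70.7%, against 70.0%. The split of SLC25A37 connections changed with kind: enhancers numbered 15 in WT and 19 in R320*, and promoters 8 and 15. For TFRC both genotypes had 15 promoters, with 32 and 31 enhancers.

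RNAs most like each member were sought by the shares of local, cis and trans connections in each genotype, 6 categories in all, among RNAs with a mean of at least 25. Nearest to TFRC were PAN3 (54 in WT and 50 in R320*), KLHDC10 (50 and 50) and RNF4 (44 and 45). Nearest to SLC25A37 were ADSS, with the same 23 and 34, G3BP2 (22 and 32) and SSBP2 (22 and 32). Nearest to ABCB10 were AL139042.1 (72), GRIA4 (50) and VTI1A (60), all in R320* only. ABCB10 RNA had 0 connections in WT, so the measure itself favoured RNAs in R320* only. By shared elements, TFRC was followed by DLG1 (33), PAK2 (21, WT only) and AC021087.5 (10). SLC25A37 was followed by PPP2R2A (11), PTK2B (3) and WRN (4), and ABCB10 by NUP133 (34), URB2 (16) and DESI2 (24). These orders follow the overlap as a share of both RNAs' elements.

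Of 66 genes of iron and haem handling, 15 were present as RNAs, including the 3 members, which were chosen because they are listed. The whole table listed 2637 RNAs, while 15343 genes were the nearest gene of an element. The share of all genes listed as RNAs was not counted, so 15 cannot be called many or few. Of the 15, 8 were in both genotypes, 7 with more connections in R320*, SLC25A37 among them, and 1, TFRC, with fewer, where 58.2% of all RNAs in both had more and 33.6% fewer. Without the members, 6 of 6 had more. The median log2 ratio of the 8 was 0.23, against 0.09 over all RNAs in both. The metal transporter gene SLC39A8 had 19 in WT and 29 in R320*, BACH1, a haem-sensing repressor gene, 8 and 14, and CYBRD1, a ferric reductase gene, 23 and 27. LYRM4, of iron-sulphur cluster assembly, had 93 and 109. EXOC6, of the exocyst, had 31 and 32, and EIF2AK1, the haem-regulated kinase gene, 26 and 27. Their median score differences lay between -0.07 (SLC39A8) and 0.22 (BACH1).

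In the iron and haem list 3 RNAs, ABCB10 included, were in R320* only and 4 in WT only, where 8.61% and 10.4% of all RNAs were. FLVCR1, a haem and choline transporter gene of chromosome 1, had 25 connections in R320* only, and HMOX2, a haem oxygenase gene, 21. In WT only were SLC11A2, the endosomal iron exporter gene that acts after TFRC (32), PCBP2, an iron chaperone gene (47), HSPA9, a mitochondrial chaperone gene (28), and FBXL5, the iron-sensing ubiquitin ligase gene (9). SLC11A2 and PCBP2 both lie on chromosome 12. Their highest local scores in the genotype that listed them ran from 2.95 for FBXL5 to 3.46 for PCBP2. As targets, 52 of the 66 genes were the nearest gene of 117 elements, which had 363 connections in WT and 321 in R320*. More connections in R320* were found for 22 of these genes, fewer for 23 and equal numbers for 7. The whole table held 82454 connections in WT and 84992 in R320*. The same split over all nearest genes was not counted, so no difference of these genes from the rest can be read from it.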

How the data were processed

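GRID-seq of K562 cells, 2 libraries of WT and 2 of R320*, was read from the 1 table the authors deposited. Per the submitters' processing notes, cutadapt 1.12, BWA and bedtools were used on hg38. The deposited values are a score per connection and genotype, and a further score column equals R320* minus WT. No source used here states how the score was computed or its scale, and sequencing depth is unknown. With pooled values there was no test; connections were counted, scores were set side by side, and differences of at least 0.5 and numbers 2-fold apart were counted. Distance ran from the nearest end of the gene (RefSeq, GRCh38.p14) to the nearest end of the element, and starts were printed counting from 1. Named connections were all local ones, the 5 highest in both genotypes, up to 3 with the largest difference in each direction, up to 3 highest in 1 genotype only, the farthest, and the 3 highest trans; others were chosen after their values were seen. The members and lists were chosen with earlier results of these data known. Counting and interval code was tested on simulated data. Python 3.11.15, pandas 2.3.3 and scipy 1.17.1 were used. Some elements and marker genes are not reported here.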

Additional observations from a re-analysis of the deposited data

How the results depend on the processing

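No paired analysis was possible because the table pools the libraries of a genotype, and for the same reason leaving out a replicate was not run. Of 48 alternative values, 37 stayed within the counting interval, or within 1.5 times for numbers of connections. Some of the 37 could not move. ABCB10 RNA had 0 connections in WT under any setting, and SLC25A37 and ABCB10 RNA had no trans connections to leave out. Merging elements of 1 RNA within 1 Mb left 3 groups in WT and 4 in R320* for TFRC (40% in both), 1 and 3 for SLC25A37 (33.3% in both), and 4 in R320* for ABCB10. With a minimum score of 1.5 TFRC had 30 connections in WT and 34 in R320*, against 47 and 46 without it, so the order of the genotypes changed. With enhancers only SLC25A37 had 15 in WT and 19 in R320*. With enhancers only the median distance of ABCB10 RNA was 626 kb, within the interval of the 1406 kb over all its elements. Centred on the median of the table, the TFRC score difference was 0.01875, close to 0. A score just above 1.2 in 1 genotype may sit just below it in the other, so connections under 1.5 listed in 1 genotype are uncertain.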
